A study of Tupaia belangeri with 6 samples.

Results

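Tau and its kinases were described in the hippocampus of the tree shrew (TS, Tupaia belangeri) by the 10 genes MAPT, GSK3B, CDK5, CDK5R1, MARK1, MARK2, MARK3, MARK4, FYN and DYRK1A. They were chosen by symbol, as the rows of the deposited matrices that carry these names, and are 10 of 83605 features. Single-nucleus RNA sequencing (3′ chemistry, counts of unique molecular identifiers, UMIs) covered 3 control TSs, titled Normal, and 3 TSs with Alzheimer's-like pathology (ALP), titled AD, with 1 library each. The study drew its TSs at an age of 5 to 6 years; ALP meant cognitive deficits with natural aging, read from the time taken in a pipeline maze, and controls were healthy animals of like age. The study describes no engineered allele and no drug treatment that set the groups apart, and the sex of each animal was not given. Its methods place brain collection after imaging, under anesthesia and with saline perfusion. Imaging used isoflurane and, in part, an injected tracer.

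MAPT encodes tau, a protein that binds and steadies microtubules, and its splicing and phosphorylation set how tightly it binds. Phosphorylated tau that leaves microtubules is the material of neurofibrillary tangles. CDK5 with its activator p35, the product of CDK5R1, GSK3B, the MARK family, FYN (on tyrosine) and DYRK1A are kinases known to phosphorylate tau. These data count RNA in nuclei and hold no measure of phosphorylation. By immunostaining of hippocampal sections, the study itself reported more phosphorylated tau in ALP than in control TSs.

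After the study's filters (200 to 2500 genes and under 5% mitochondrial UMIs), 28233 nuclei were kept, 14387 from controls and 13846 from ALP TSs. The limit of 2500 genes removed between 16.0% and 46.4% of the barcodes of a library, with the highest share in Control 2, which gave 1614 nuclei. Kept libraries held between 4159545 and 15412799 UMIs. Nuclei were clustered with none of the 10 genes among the variable genes, and classes are called like a cell type only from markers: granule (Gran), other excitatory (nonDG_ExN), inhibitory (InN), astrocyte (Astro), microglia (Micro), oligodendrocyte (Oligo), oligodendrocyte precursor (OPC), endothelial (Endo), mural and ependymal nuclei. Clusters with a median under 1000 UMIs and no name are given as shallow nuclei. Libraries contributed unevenly to clusters, and Control 3 gave 0.198% and 1.25% of the nuclei of 2 nonDG_ExN-like clusters and 40.3% of another. Transcripts of the Y-linked gene DDX3Y were found in 3 libraries, Control 1, Control 2 and ALP 2, which held 181 to 669 of its UMIs, against at most 1 in each of the others.

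MAPT had the most UMIs of the 10 genes, 24516 in kept nuclei. DYRK1A had 15801, MARK3 15778, FYN 6784, CDK5 5956, MARK4 1128 and CDK5R1 675. GSK3B had 49 UMIs, MARK1 had 2 and MARK2 had 1, so that 7 of the 10 genes could be tested. These totals are not levels per length and say nothing of which gene is more abundant. All 10 symbols matched RefSeq (assembly TupChi_1.0), which was used for names only.

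**Figure D1:**
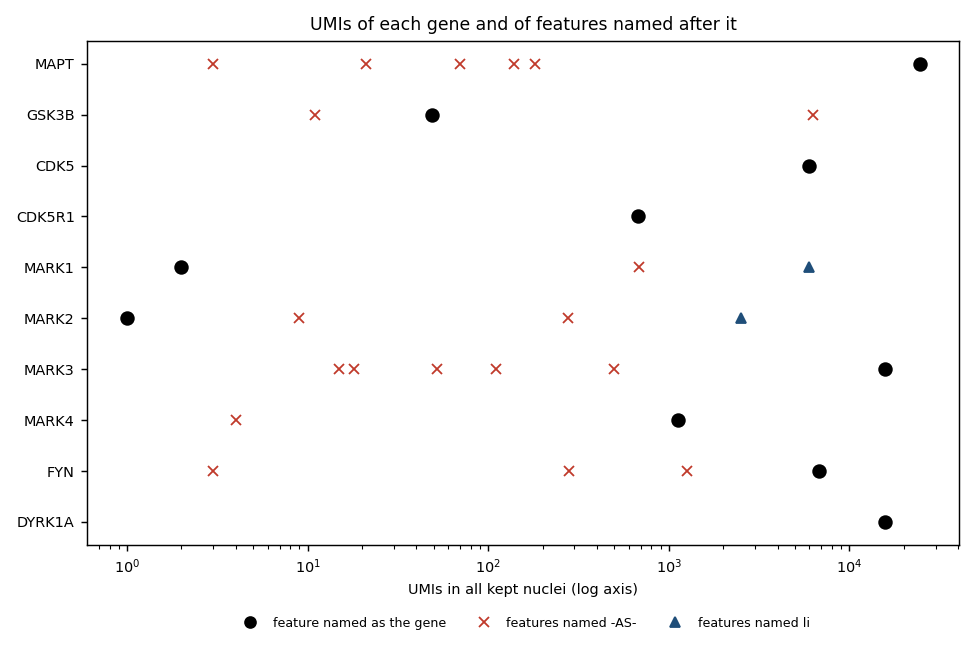
UMIs in all kept nuclei (log axis) of each of the 10 genes (filled circles) and of features whose names are the gene's name followed by -AS- and a number (crosses) or by li and a number (triangles). GSK3B, with 49 UMIs, sits far to the left of GSK3B-AS-2, with 6296, and MARK1 and MARK2 sit far to the left of MARK1li1 and MARK2li1.

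MAPT was highest in Oligo-like nuclei in 6 of 6 libraries. Its level there was 569 ± 47.1 CPM (UMIs of the gene per 1000000 UMIs of the class in a library, mean ± SD, n = 6 libraries), with libraries between 518.5 and 642 CPM. The neuronal classes followed, with 427 ± 58.0 CPM in Gran-like, 392 ± 54.0 in InN-like and 376 ± 39.9 in nonDG_ExN-like nuclei.

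OPC-like nuclei held 321 ± 27.2 CPM of MAPT, shallow nuclei 315 ± 59.0 and Astro-like nuclei 310 ± 21.3. Micro-like nuclei held 176 ± 40.6 CPM and Endo-like nuclei, the lowest class, 96.3 ± 14.9. Neighbours in this order were compared within libraries by a two-sided exact permutation test of sign flips, whose smallest p is 0.0312 with 6 libraries. The step from Oligo-like to Gran-like and that from Astro-like to Micro-like nuclei reached it, in 6 of 6 libraries each (adjusted p = 0.365 over 70 neighbour pairs of the 7 genes), while Gran-like, InN-like and nonDG_ExN-like nuclei did not differ beyond their spread (p = 0.125 and 0.719, exact test). Over the 70 pairs, 6 reached the smallest p and 0 passed after adjustment, which would need most pairs to reach that p.

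Within the Oligo-like class, the 6 clusters with at least 10 nuclei in every library had between 519 and 614 CPM of MAPT, and the 13 clusters of Gran-like, nonDG_ExN-like, InN-like and Astro-like nuclei had between 302 and 434 CPM. On the mean over libraries, the high level of MAPT was thus found in each of these Oligo-like clusters. Single libraries varied, and Control 2 ran from 325 to 758 CPM over them, against 513 CPM in its larger Gran-like cluster. Some of the 13 other clusters had fewer than 10 nuclei in a library, which was left out there.

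Counted as the share of nuclei with at least 1 MAPT UMI, the order depended on depth. After thinning each nucleus to 1000 UMIs, Oligo-like nuclei had 42.6% ± 2.60 (SD, n = 6) and Gran-like, InN-like and nonDG_ExN-like nuclei 34.1% ± 3.78, 32.2% ± 3.72 and 30.6% ± 2.25. Without thinning, InN-like nuclei had 76.4% ± 7.33 and Oligo-like nuclei 52.9% ± 3.61, at median depths of 4275 and 1329 UMIs. Endo-like nuclei, which stand here for nuclei with little MAPT, had 8.54% ± 2.98 after thinning, at a median of 1204 UMIs before it. Thinning left out 1464 of 8410 Oligo-like and 49 of 2449 InN-like nuclei.

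**Figure D2:**
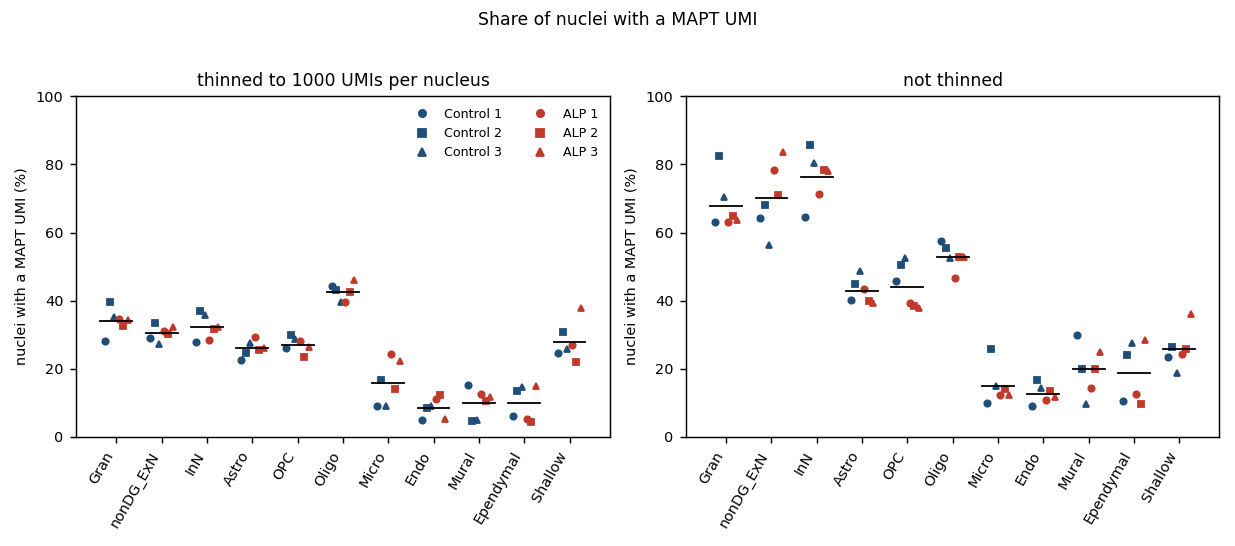
Share of nuclei (%) with a MAPT UMI in each class, after thinning to 1000 UMIs per nucleus (left) and without thinning (right), 1 point per library and a line at the mean of 6 libraries. Oligo-like nuclei lead after thinning, at 42.6% on average, and lie under the 3 neuronal classes without it.

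CDK5, a member of the cyclin-dependent kinase family that acts in neurons, had its highest mean in Oligo-like nuclei too, at 126 ± 43.9 CPM (n = 6). It was highest there in 2 libraries only, both of ALP TSs (ALP 1 at 181 CPM and ALP 3 at 164). Without the limit on genes its mean was highest in shallow nuclei, at 138 CPM, against 126 in Oligo-like nuclei. Shallow nuclei held 111 ± 33.8 CPM, InN-like nuclei 108 ± 27.6 CPM and Astro-like nuclei, the lowest class, 59.8 ± 14.6. Each step between neighbouring classes was within the spread between libraries. CDK5R1, which encodes the activator p35, had 19.2 ± 13.0 CPM in Gran-like nuclei and between 4.80 and 16.3 CPM on average in the other named classes. Shallow nuclei, the unnamed class, stood apart with 73.5 ± 37.6 CPM, highest in 6 of 6 libraries. Their 17 to 44 UMIs per library rest on a median depth of 771 UMIs per nucleus, and the shallow clusters hold markers of several classes at once (5 Oligo markers summed to 1207 to 2450 CPM and 5 nonDG_ExN markers to 478 to 901 CPM, in the libraries of both groups), whose part in this level was not tested.

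FYN, a Src-family tyrosine kinase, was highest in Astro-like nuclei, with 232 ± 36.1 CPM, and in OPC-like nuclei, with 229 ± 27.1 CPM, and these 2 classes did not differ beyond their spread (p = 0.875, exact test). Micro-like nuclei followed with 166 ± 20.5 CPM, lower than OPC-like nuclei in 6 of 6 libraries. InN-like nuclei held 95.2 ± 13.6 CPM and Oligo-like nuclei 57.2 ± 13.3 CPM. Between OPC-like and Oligo-like nuclei, mean FYN was higher in the former and mean MAPT in the latter.

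DYRK1A, a dual-specificity kinase encoded in the region triplicated in Down syndrome in humans, was highest in Micro-like nuclei on average, at 408 ± 157 CPM. It was highest there in 4 of 6 libraries, with 183.5 CPM (11 UMIs) in Control 2 and 658 CPM in Control 1. The remaining classes lay between 174 and 274 CPM. MARK3, a kinase that phosphorylates tau in its microtubule-binding repeats, was also highest in Micro-like nuclei on average, at 323 ± 77.3 CPM, in 3 of 6 libraries. MARK4, of the same family, lay between 9.70 and 25.4 CPM on average in every class, and 0 of its neighbour pairs differed (smallest p = 0.188, exact test).

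**Figure D3:**
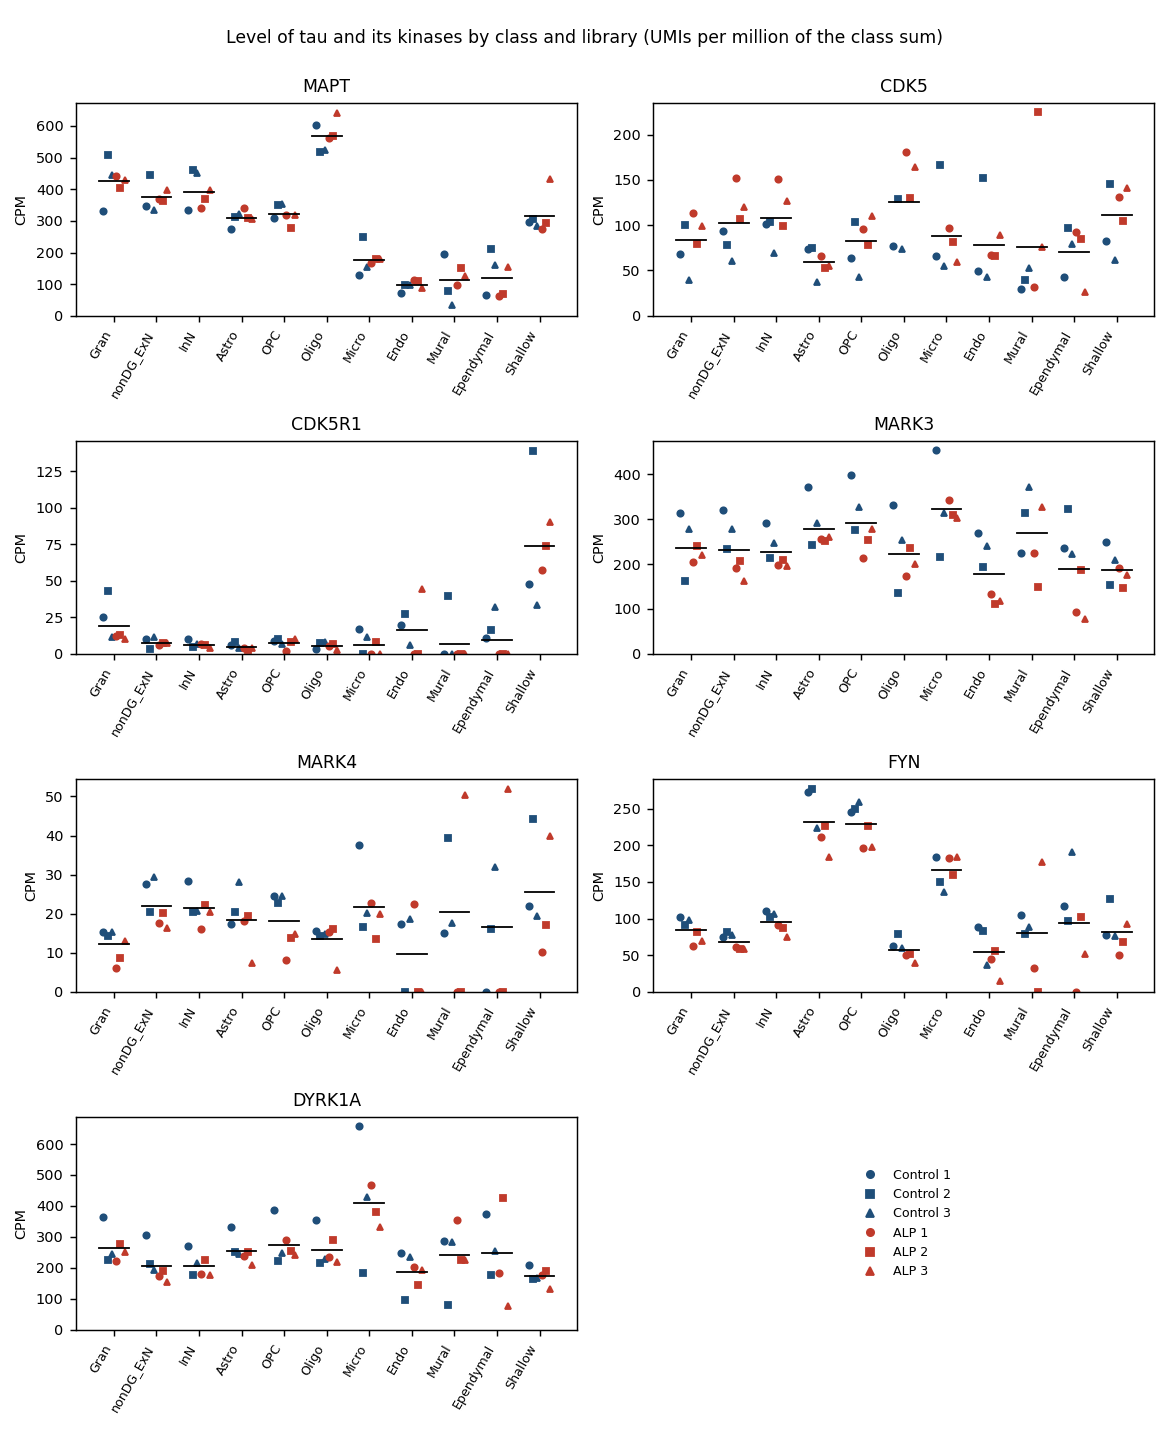
CPM of the 7 genes with enough UMIs, by class and library (blue, control; red, ALP; lines, means of 6 libraries). The points of MAPT peak in Oligo-like nuclei, at a mean of 569 CPM, and those of FYN in Astro-like and OPC-like nuclei, at 232 and 229 CPM. CDK5R1 peaks in shallow nuclei, at 73.5 CPM.

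Neuronal against glial nuclei were compared with edgeR on 2 sums per library, with the library as a block, TMM factors and adjustment over 20707 genes, of which 65.3% were called (adjusted p under 0.05 and a log2 fold change beyond 0.25), 33.7% higher and 31.5% lower in neuronal nuclei. Of the 7 genes, 3 were called. CDK5R1 was higher in neuronal nuclei, by 0.90 on the log2 scale (SE 0.21, adjusted p = 0.00240 by edgeR), in 5 of 6 libraries on plain CPM, and by 0.60 without Control 1 or 0.58 without the limit on genes. Among the neuronal classes its mean was 19.2 CPM in Gran-like nuclei. It was 7.72 in nonDG_ExN-like and 6.3 in InN-like nuclei, near the 7.65 of OPC-like nuclei. FYN was lower in neuronal nuclei, with a log2 difference of -0.68 (SE 0.10, adjusted p = 7.24e-05 by edgeR), in 6 of 6 libraries. This does not hold for every glial class. Oligo-like nuclei had a mean of 57.2 CPM, under nonDG_ExN-like (68.65), Gran-like (84.3) and InN-like nuclei (95.2). MARK4 was higher in neuronal nuclei by 0.36 (SE 0.14, adjusted p = 0.0401 by edgeR), and this call ended without scaling factors (0.21, adjusted p = 0.194), with upper-quartile normalization (0.31, adjusted p = 0.0711), with no filter on low counts, with classes weighted equally, and without Control 1, Control 3 or ALP 3 (0.22 to 0.32). The MARK4 call held without Control 2, ALP 1 or ALP 2. Without the limit on genes the difference was 0.62 (SE 0.13, adjusted p = 0.000512 by edgeR). Gran-like nuclei, at 12.1 CPM, held less MARK4 on average than each glial class of this comparison, at 13.6 to 21.8.

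MAPT did not differ, at 0.04 (SE 0.10, adjusted p = 0.721 by edgeR). With each class given the same weight it was called higher in neuronal nuclei, by 0.40 (SE 0.07, adjusted p = 0.000126 by limma). Oligo-like nuclei are 1 of the 4 glial classes in that fit and the most numerous in the summed one. CDK5 (0.21, adjusted p = 0.0391) stayed under the limit on fold change, and MARK3 (-0.04) and DYRK1A (-0.17) were not called. DYRK1A was called lower in neuronal nuclei without scaling factors (-0.31, adjusted p = 0.00500 by edgeR) and with classes weighted equally (-0.30, adjusted p = 0.00324 by limma).

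The question of these data for tau biology is whether RNA of tau or of its kinases differed between the groups. In the 11 classes, 57 pairs of gene and class could be tested with edgeR on UMIs summed per library, and 1 was called, CDK5 in Oligo-like nuclei. This is 1.75% of the pairs, against 1.18% of all pairs of a gene and a class. At an unadjusted p under 0.05 there were 9 of 57 pairs, 15.8%, against 16.7% of all pairs. Both shares lie near those of all genes. Of all genes, 4.77% were called in Oligo-like nuclei, the highest share. It was 1.70% in Gran-like nuclei, 1.62% in OPC-like nuclei and 0.717% in Micro-like nuclei. Astro-like nuclei had 0.258%, InN-like nuclei 0.0670% and shallow nuclei 0.0487%, and the other 4 classes 0%. P-values set a difference between the groups against the spread between animals within a group. CPM beside these tests carry the TMM factors, and without such factors the median log2 fold change of all genes moves by between -0.25 and 0.02, depending on the class.

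MAPT was called in 0 of 8 classes, and 0 of them passed an unadjusted p under 0.05. In Oligo-like nuclei the controls had 596, 532 and 509 CPM and the ALP libraries 606, 580 and 685 CPM, which overlap. The log2 fold change was 0.19 (SE 0.18, adjusted p = 0.575 by edgeR). In nonDG_ExN-like nuclei it was 0.24 (SE 0.19, adjusted p = 0.551 by edgeR), but -0.01 without scaling factors, and between 0.15 without ALP 3 and 0.42 without Control 2. Over the classes it lay between -0.11 and 0.24, with 6 of 8 above 0, or 4 of 8 without scaling factors. In Micro-like nuclei, 1 of the 6, the means ran the other way, at 211 CPM in controls and 205 in ALP libraries. With all nuclei of a library summed, MAPT stood at 343, 385 and 360 CPM in controls and 424, 391 and 491 in ALP libraries, which do not overlap, as in 12.8% of all genes in the higher direction (log2 fold change 0.26, SE 0.15, adjusted p = 0.323 by edgeR). In CPM of all UMIs, without the factors, the groups overlap, at 375, 398 and 391 in controls and 389, 379 and 434 in ALP libraries. The log2 fold change without the factors was 0.04. In such a sum fewer nuclei of a class and less RNA per nucleus cannot be told apart.

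CDK5 in Oligo-like nuclei stood at 76.1, 132 and 71.2 CPM in controls and at 195, 133 and 175 CPM in ALP libraries. Control 2 rests here on 36 UMIs from 175 nuclei, while each of the other libraries held 184 to 353 UMIs. The groups did not overlap, by a small margin between Control 2 (132.0) and ALP 2 (132.6), and 12.5% of all genes were separated in this way in this class. CDK5 was 0.97 higher in ALP on the log2 scale (SE 0.25, adjusted p = 0.0484 by edgeR), where 1.83% of 11624 genes were called in the higher direction. DESeq2 called it too (0.94, adjusted p = 0.0244). It was not called with upper-quartile normalization (adjusted p = 0.0525), without scaling factors (0.86, adjusted p = 0.0593), with the replicate block (0.96, adjusted p = 0.0915), with a term for Y-linked transcripts (0.95, adjusted p = 0.0808), at resolution 1, without the limit on genes, or without Control 1, Control 3, ALP 1 or ALP 3 (0.80 to 0.94, adjusted p between 0.117 and 0.203). DDX3Y transcripts were held by Control 1, at 76.1 CPM of CDK5, and by Control 2 and ALP 2, the libraries nearest the boundary. The part of this in the small margin was not tested. Without Control 2 or without ALP 2 the difference was 1.20 and 1.14 (adjusted p = 0.0147 and 0.0213 by edgeR). Median depth of Oligo-like nuclei was 1417, 1482 and 1644 UMIs in controls and 1170.5, 1323 and 1181 in ALP libraries. It was lower in every ALP library than in every control in Gran-like, Astro-like, Micro-like, OPC-like and Endo-like nuclei too. The part of depth in the CDK5 value was not tested.

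The Oligo-like clusters differ in their makeup, with between 18.6% and 89.1% of nuclei from ALP libraries. Within each of the 6 clusters with at least 10 nuclei in every library, the ALP mean of CDK5 was the higher. Control 2 lay above every ALP library in 2 of these clusters, at 187 and 207 CPM, and was at 0 in 2 others. Its cluster values rest on parts of its 36 UMIs in the class. The part of cluster makeup in the CDK5 value was not tested. The 5 Oligo markers in the files summed to 5996 to 8311 CPM in controls and 6032 to 7845 in ALP libraries, and the 5 nonDG_ExN markers to 356 to 475 and 397 to 427 CPM, with none at 0. The 7 OPC markers summed to 1036 to 1501 CPM in controls and 881 to 1049 in ALP libraries. The part of these markers in the CDK5 value was not tested.

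The fitted log2 fold change of CDK5 was above 0 in 8 of 8 classes, but not under every setting in 3 of them. In Astro-like nuclei, at 0.04, it turned to -0.12 without scaling factors, and also without marked doublets, Control 3 or ALP 1. In Micro-like nuclei, at 0.14, it turned to -0.02 with DESeq2 and with the replicate block, and also without Control 1, Control 3 or ALP 1. In shallow nuclei, at 0.41, it turned to -0.27 without the limit on genes. In nonDG_ExN-like nuclei the controls had 87.0, 75.5 and 57.3 CPM and the ALP libraries 168, 110 and 146 CPM, which do not overlap (10.9% of genes in this class). Their median depth was 3631, 3753 and 3152 UMIs in controls and 5051, 3974.5 and 5465 in ALP libraries. In a cluster of 638 of these nuclei, scored without Control 3, the groups overlapped, at 97.2 and 110 CPM in controls and 125, 80.3 and 124 in ALP libraries. In the other clusters of this class they did not. Of these, a cluster of 505 nuclei was scored without Control 3 and another, of 232 nuclei, without Control 2. The share of all genes without overlap within a cluster is not given here. The part of depth and of cluster makeup was not tested. The log2 fold change in nonDG_ExN-like nuclei was 0.93 (SE 0.23, adjusted p = 0.115 by edgeR), or 0.68 without scaling factors. In this class 0 of 13340 genes were called by edgeR and 2286 (17.1%) had an unadjusted p under 0.05. For CDK5 the log2 fold changes of other classes follow. It was 0.67 in Gran-like, 0.63 in InN-like and 0.57 in OPC-like nuclei, with overlapping groups and adjusted p of 0.239, 0.152 and 0.361 by edgeR. Without Control 3 it was 0.40 in Gran-like and 0.32 in OPC-like nuclei, and without Control 2 it was 0.88 in OPC-like nuclei. In Micro-like nuclei the means ran the other way from the fitted value, at 114 CPM in controls and 93.5 in ALP libraries, with Control 2 at 205 CPM and the other libraries between 66.2 and 117. With all nuclei summed, it was 0.81 (SE 0.25, adjusted p = 0.109), with 0 of 22749 genes called by edgeR and 5323 (23.4%) at an unadjusted p under 0.05. Control 2, at 99.0 CPM, and ALP 2, at 97.8, overlap there.

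**Figure D4:**
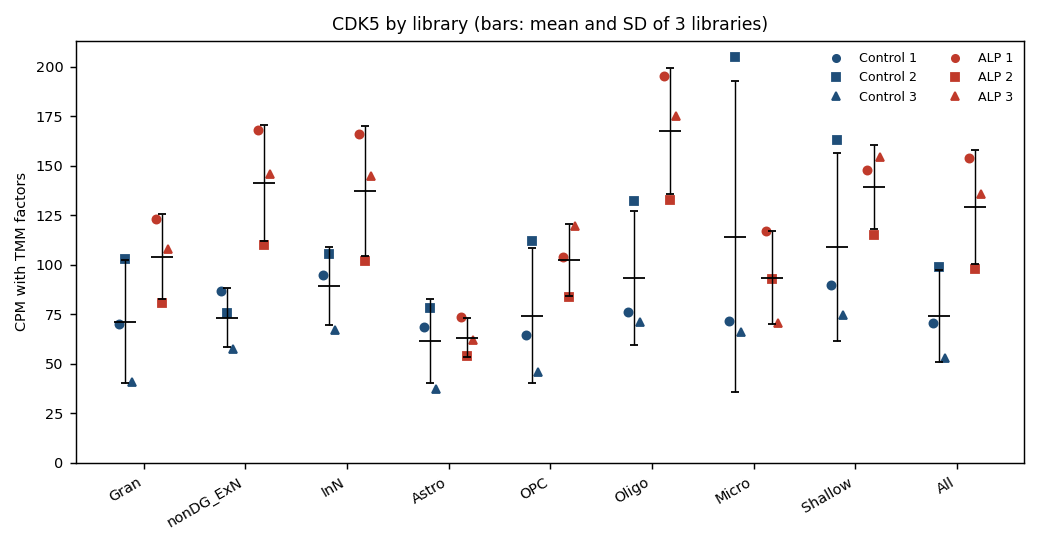
CDK5 by library (CPM of the tested genes, with TMM factors) in the 8 classes tested and in all nuclei summed, with mean and SD of 3 libraries per group. In Oligo-like and nonDG_ExN-like nuclei the 3 ALP libraries lie above the 3 controls, and in Astro-like nuclei both groups lie between 37.5 and 78.3 CPM.

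CDK5R1 was called in 0 of 5 classes by edgeR, with 0 at an unadjusted p under 0.05. In Gran-like nuclei it stood at 26.0, 44.1 and 11.5 CPM in controls and at 13.4, 13.2 and 10.8 in ALP libraries, which overlap, with a log2 fold change of -0.91 (SE 0.43, adjusted p = 0.292 by edgeR). Here the controls rest on 82, 9 and 11 UMIs. Without the limit on genes the value was -0.56. In shallow nuclei, where its level was highest, the fitted value was 0.12 (SE 0.43) while the means lay at 82.8 CPM in controls and 81.5 in ALP libraries, with Control 2 at 156 CPM and Control 3 at 40.6. With 1 library left out it ran from -0.24 without Control 3 to 0.83 without Control 2.

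FYN was called in 0 of 8 classes by edgeR, with 1 at an unadjusted p under 0.05, and its fold change lay under 0 in 7 of 8 under each of 3 scalings. Against TMM factors, the other scalings moved the median of all genes by between -0.25 and 0.02, depending on the class. Values under 0 thus had little room to turn. In Gran-like nuclei it stood at 105, 93.1 and 100 CPM in controls and at 68.3, 83.7 and 75.6 in ALP libraries, with a log2 fold change of -0.41 (SE 0.17, unadjusted p = 0.0401 and adjusted p = 0.248 by edgeR), or -0.18 without the limit on genes. The groups did not overlap in 4 of 8 classes (Gran-like, InN-like, Oligo-like and OPC-like nuclei), where 11.4%, 13.1%, 10.7% and 9.34% of all genes were lower without overlap. In Micro-like nuclei the fold change was 0.15 (SE 0.24).

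The fold change of MARK3 lay under 0 in 11 of 11 classes under each of 3 scalings, and it was called in 0 by edgeR, with 3 at an unadjusted p under 0.05. As for FYN, the scalings gave values under 0 little room to turn. The share of all genes with the same sign in every class is not given here. In OPC-like nuclei it stood at 404, 298 and 348 CPM in controls and at 232, 270 and 304 in ALP libraries, which overlap, with a log2 fold change of -0.39 (SE 0.16, unadjusted p = 0.0332 and adjusted p = 0.272 by edgeR). In Endo-like nuclei the value was -1.04 (SE 0.36, adjusted p = 0.763 by edgeR), with 28 to 219 nuclei per library, and -0.54 without the limit on genes. The groups did not overlap in Endo-like, Ependymal-like and nonDG_ExN-like nuclei, where 5.59%, 5.35% and 11.2% of genes were lower in this way. The classes share libraries, so that they are not independent of each other.

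The fold change of MARK4 lay under 0 in 6 of 6 classes, and it was called in 0 by edgeR, with 1 at an unadjusted p under 0.05. In OPC-like nuclei it stood at 24.8, 24.6 and 26.1 CPM in controls and at 8.67, 14.8 and 16.2 in ALP libraries, which do not overlap (9.34% of genes in this class), with a log2 fold change of -0.89 (SE 0.34, unadjusted p = 0.0213 and adjusted p = 0.224 by edgeR). These values rest on 42, 9 and 30 UMIs in controls and 4, 12 and 10 in ALP libraries. In Gran-like nuclei the groups did not overlap either (11.4% of genes), at -0.62 (SE 0.38), which ran from -0.41 without ALP 1 to -0.95 without ALP 3. The margin was small, between Control 2 (14.7 CPM) and ALP 3 (14.1). The controls rest here on 49, 3 and 15 UMIs and the ALP libraries on 6, 12 and 17. DYRK1A was called in 0 of 11 classes by edgeR, with log2 fold changes between -0.27 and 0.20 and 0 at an unadjusted p under 0.05.

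**Figure D5:**
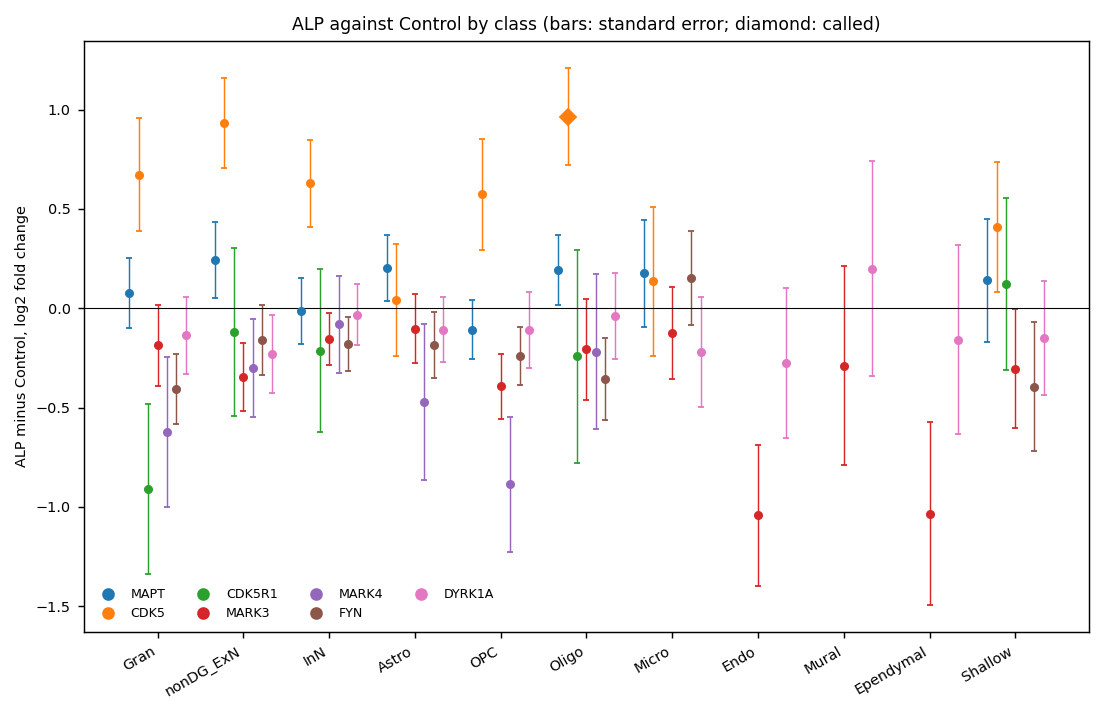
Log2 fold change of ALP over control with its standard error for each gene and class tested (diamond, called). CDK5 in Oligo-like nuclei, at 0.97, is the only diamond, and the points of MARK3 and MARK4 lie under 0 in all classes shown.

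The ALP effect in neuronal and in glial nuclei was compared directly by an interaction term, with library as a block. It was called for 0 of the 7 genes and 0 of 20707 genes (1724, 8.33%, at an unadjusted p under 0.05 by edgeR). The smallest unadjusted p among the 7 genes was 0.226, for MARK4 (edgeR). For CDK5 the effect in neuronal nuclei minus that in glial nuclei was -0.04 (SE 0.17), and for MAPT -0.18 (SE 0.20). With classes weighted equally both turned, to 0.35 (SE 0.18) and 0.01 (SE 0.14) by limma. For MARK4 it was 0.36 (SE 0.28), and 0.17 with classes weighted equally or 0.09 without ALP 3.

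Beside the 10 genes the files hold 21 features with UMIs whose names are a gene of the set followed by -AS- or li and a number, and 19 of these are named -AS-. The sources used here do not state what li marks or whether counting used strand, so that reads of a gene and of an antisense partner cannot be told apart. MARK1li1 held 5939 UMIs, from 151.8 CPM in OPC-like and 139 in InN-like to 22.5 CPM in Oligo-like nuclei. MARK2li1 held 2522 UMIs. Neither differed between the groups by edgeR in any class after adjustment.

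GSK3B-AS-2 held 6296 UMIs, against 49 of GSK3B, and had a fold change under 0 in 8 of 8 classes and was called in 0 by edgeR, with 5 at an unadjusted p under 0.05. In InN-like nuclei it stood at 97.4, 112 and 174 CPM in controls and at 56.6, 85.2 and 58.2 in ALP libraries, which do not overlap, as in 13.1% of genes in this class. The log2 fold change was -0.93 (SE 0.24, adjusted p = 0.0799 by edgeR). FYN-AS-1, with 1263 UMIs, had a fold change under 0 and an unadjusted p under 0.05 in 6 of 6 classes and was called in Oligo-like nuclei, where it stood at 18.8, 18.3 and 16.3 CPM in controls and at 6.91, 6.66 and 6.44 in ALP libraries. It fell by 1.40 on the log2 scale there (SE 0.31, adjusted p = 0.0321 by edgeR). In Oligo-like nuclei the median log2 fold change of all 1855 features named -AS- was -0.53, against 0.00 over all genes, and 13.1% of them were called lower, against 2.94% of all genes. Their median lay between -0.62 and -0.41 in the other neuronal and glial classes, where the share called lower ran from 0% in nonDG_ExN-like to 6.79% in OPC-like nuclei. It was -0.21 in shallow nuclei and -0.05, 0.07 and 0.20 in Mural-like, Endo-like and Ependymal-like nuclei, with at most 20 such features tested in each of these 3.

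Over 27 other tau kinases, 153 pairs of gene and class were tested and 0 called, with 6 at an unadjusted p under 0.05 in the higher and 12 in the lower direction, together 11.8% against 16.7% of all pairs. PRKACA, a catalytic subunit of protein kinase A, gave 7 of these 12, among them -0.93 in Gran-like and -0.93 in nonDG_ExN-like nuclei (adjusted p = 0.0971 and 0.127 by edgeR). BRSK1, a kinase of neuronal polarity, had 0.47 in InN-like and 0.69 in Oligo-like nuclei (adjusted p = 0.190 and 0.129). Over 21 phosphatases and their regulators 132 pairs were tested and 0 called, with 5 at an unadjusted p under 0.05 in each direction, together 7.58%. LCMT1, which methylates the catalytic subunit of PP2A, had 0.76 in nonDG_ExN-like nuclei (adjusted p = 0.134 by edgeR).

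Over 25 microtubule proteins beside tau, 22 were in the files and 143 pairs were tested, with 0 called by edgeR, 13 at an unadjusted p under 0.05 in the higher and 2 in the lower direction, together 10.5% against 16.7% of all pairs. TUBB2A, a β-tubulin, had 60.5, 62.6 and 60.6 CPM in controls and 112, 106 and 133 in ALP libraries in InN-like nuclei, at 0.93 (SE 0.15, adjusted p = 0.0517 by edgeR). The groups do not overlap there, as in 11.3% of genes in this class. STMN3 and TUBB3 had 0.76 and 0.83 in the same class (adjusted p = 0.0773 and 0.0996 by edgeR). The median log2 fold change of the list in InN-like nuclei was 0.19, against 0.01 over all genes.

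Of 26 genes of tau turnover, modification and uptake, 128 pairs were tested and 2 called, both in Oligo-like nuclei, with 12 at an unadjusted p under 0.05 in the higher and 17 in the lower direction. The calls are 1.56% of the pairs, against 1.18% of all pairs, and the pairs under 0.05 are 22.7%, against 16.7%. FKBP5, a co-chaperone of HSP90, fell by 1.77 on the log2 scale (SE 0.34, adjusted p = 0.0200 by edgeR), from 127, 51.3 and 201 CPM in controls to 33.2, 43.0 and 44.1 in ALP libraries. LGMN, the lysosomal protease legumain that can cut tau, was 0.83 higher (SE 0.19, adjusted p = 0.0324 by edgeR), with 89.1, 125 and 87.5 CPM in controls and 176, 163 and 172 in ALP libraries. In both genes the groups do not overlap, as in 10.7% of genes in the lower and 12.5% in the higher direction.

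Between neuronal and glial nuclei, 11 of 19 microtubule proteins were called higher in neuronal nuclei and 5 lower, against 33.7% and 31.5% of all genes, with a median log2 difference of 1.22 against 0.03 over all genes. DCLK1 (4.08) and STMN2 (2.99) led in the neuronal and TUBB4A (-2.67) and MAP4 (-1.37) in the glial direction. Of the turnover genes 3 of 18 were called higher and 10 lower in neuronal nuclei, against the same shares of all genes, with a median of -0.42. BIN1, a tau-binding endocytic adaptor, was among the lower (-1.84).

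Genes with a pattern most like that of each gene were named by Pearson's r of log2(CPM + 1) over 66 sums of class and library, among 6119 plain symbols with at least 1000 UMIs. The sums share libraries and depth, so that r is a description. For MAPT they were DLG2 (r = 0.80), PCNX2 (0.79), SNTG1 (0.74), HID1 (0.74) and PTPRD (0.74). The closest kinases of the set came far behind, MARK4 (0.42) at rank 875 and CDK5 (0.38) at rank 1227 among the 6119 symbols. FYN was most like UBE2E2 (0.81) and PPARA (0.80). CDK5 was most like YDJC (0.63), KRT10 (0.59) and MAP7D2 (0.57). DYRK1A was most like CDK13 (0.76), ZZZ3 (0.67) and ITFG1 (0.66). MARK3 was most like NLRC4 (0.74), BIRC6 (0.72) and CDK13 (0.70). MARK4 was most like BLMH (0.76), FBXO42 (0.69) and CMTR1 (0.69).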

How the data were processed

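Hippocampal nuclei of 3 control and 3 ALP TSs were profiled with 10x Genomics 3′ chemistry. The authors deposited raw counts, as UMIs per feature and barcode, from Cell Ranger (3.1.0 per the labels and the methods) with the TreeshrewDB genome. The header of the matrices names another version, and the build, the counting of introns and the use of strand are not given in the sources used here.

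Barcodes with 200 to 2500 genes and mitochondrial UMIs under 5% were retained. Their UMIs were normalized to 10000 per nucleus on a log scale and grouped with scanpy 1.11.5 (2000 variable genes, 30 components, 20 neighbours) and leidenalg at resolution 2. A cluster took a cell type name where 3 or more of its markers reached 3% of nuclei and a fold of 1.5. Doublets were marked in 1.43% to 5.10% of the nuclei of a library and kept, with their removal as an alternative, and clusters with at least 15% of them stayed unnamed. These limits were chosen once the data had been seen. UMIs were summed per library and class (at least 10 nuclei) and tested with edgeR 4.0.16 (quasi-likelihood, TMM, minimum count 10, Benjamini-Hochberg over all genes). DESeq2 1.42.0 and limma 3.58.1 were alternatives. Nuclei of 1 library are not replicates. Detection was compared after thinning to 1000 UMIs, and level differences between classes by exact sign flips. Genes, lists and tests were chosen with earlier results of these data known. The rule for named genes took all 10 genes, features named after them, the genes most like them, and of the lists every gene called and otherwise up to 3 per class with the smallest p; the text gives some of these, and a few are not reported here.

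The script was tested on simulated data, where it recovered 62.5% of 192 changed genes of 11305 for Oligo-like, 58.5% of 176 of 9833 for Gran-like, 66.9% of 175 of 4654 for Micro-like and 36.8% of 185 of 12771 for nonDG_ExN-like nuclei. False calls numbered 7, 10, 8 and 5 in these classes. The planted changes were larger than most log2 fold changes given here for the 10 genes, so that these shares do not speak for smaller changes. Libraries differed beyond sampling noise (chi-square per gene at least 6.72) and shared at most 0.465% of barcodes.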

Additional observations from a re-analysis of the deposited data

How the results depend on the processing

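The count of called pairs of gene and class, 1, became 0 with upper-quartile normalization, no scaling factors, a term for Y-linked transcripts, the replicate block, resolution 1 and no upper limit on genes, and 3 with no filter on low counts (CDK5 in Oligo-like, nonDG_ExN-like and InN-like nuclei). Leaving out 1 library gave 0 to 1. It stayed 1 with DESeq2 and with marked doublets removed. Another setting kept the genes of the set among variable genes, but 0 of them were variable genes. That setting repeated the main values for CDK5 in Oligo-like nuclei (0.97, adjusted p = 0.0484 by edgeR) and is no separate check. The settings without scaling factors and with a Y-linked term were added after seeing the data. In all nuclei summed, the count of called genes of the set, 0, became 1 (CDK5) with DESeq2 and with no filter. It was 0 to 1 when 1 library was left out, where 1 came without Control 2. Between neuronal and glial nuclei, 3 genes of the set were called, and 2 to 3 with 1 library left out. Classes weighted equally gave 5 (MAPT, CDK5, CDK5R1, FYN and DYRK1A), and 2 were called with no replicate block. Shares of all genes called are given here for the main fits only. The counts under other settings, those with no filter among them, therefore cannot be set against all genes. The interaction gave 0 in every setting run. The class with the highest share was the same for 7 of 7 genes at 500 UMIs and for 2 of 7 without thinning, and that with the highest level was the same for 5 of 7 genes without the limit on genes. The labels do not say that replicate numbers mark a shared litter or day, and deviations of same-numbered libraries had r between -0.29 and 0.19 over 36 pairs, with 0 classes over 0.1 in all 3.

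Depth limits MARK4, CDK5R1 and the smaller classes, and GSK3B, MARK1 and MARK2 could not be tested. Of 1213 single values under another setting, 18 were weaker in their call, 9 were stronger, and 0 reversed a call or a nominal difference. Another 92 changed sign without a call.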
